A study of Mus musculus with 18 samples.

Results

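The platelet-derived growth factor (PDGF) system was examined in F1 mouse ovaries by RNA sequencing, as the 6 genes that encode its receptors and ligands. They are the receptors Pdgfra and Pdgfrb and the ligands Pdgfa, Pdgfb, Pdgfc and Pdgfd, found by gene symbol, and all 6 had a row in every library among 30172 genes. At postnatal day 3 (Pd3) receptor RNA was higher in the F1-HHcy group than in F1-Control, when Pdgfra reached 3.82 times and Pdgfrb 2.27 times the F1-Control mean. At Pd7 Pdgfrb and the ligand Pdgfc were higher and the ligand Pdgfa was lower in F1-HHcy, and at Pd21 no member of the family passed the test between the diets.

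PDGF ligands are secreted as disulfide-linked pairs of chains that bind receptor tyrosine kinases on neighbouring cells and drive proliferation, migration and survival of mesenchymal cells. The A and C chains act mainly through the alpha receptor, the B chain through both receptors, and the D chain mainly through the beta receptor. The C and D chains carry an extra CUB domain and are released as latent factors, which proteases must cleave before they can bind. In the ovary the alpha receptor is known as a mark of stromal fibroblasts and theca precursors, and the beta receptor as a mark of pericytes and other perivascular cells, while endothelial cells are a classical source of the B chain.

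The study followed wild type female C57BL/6J offspring whose mothers ate either normal chow (F1-Control) or chow with 3% methionine (F1-HHcy), a diet that raises homocysteine, an amino acid formed from methionine. Maternal feeding began 4 weeks before mating, by the sample labels, and ran through pregnancy and nursing, and the offspring were not treated themselves. The text of the study gives a longer lead-in on this diet than the labels do. It also gives the control diet a set methionine content, below 3%. Whole ovaries were taken at Pd3, Pd7 and Pd21, with 3 libraries for each diet and day and 18 in all, and by the labels the ovaries of Pd21 form batch 2 and all younger ones batch 1. They do not say whether a library came from 1 pup or from a pool, nor from which litter, so that p-values measure the spread between these libraries, and pups that share a mother cannot be told apart from independent ones.

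Levels are given as FPKM, the number of fragments divided by gene length and by the fragments that the library held over all genes. This allows levels of different genes to be set side by side. Library totals recovered from these values lay between 33630641 and 39399281 fragments, and the members were backed by 311 (the lowest, for Pdgfb) to 18997 (the highest, for Pdgfra) fragments in a library. Diets were compared within a day by limma on log2(FPKM + 1), and a gene was called at a Benjamini-Hochberg adjusted p under 0.05 over all genes tested. Fold changes are given on that log2(FPKM + 1) scale, which understates changes of genes near 1 FPKM, as F1-HHcy against F1-Control unless another contrast is named. Markers of oocytes and granulosa cells were present in every library, with the egg coat gene Zp3 between 130.1 and 689 FPKM and the inhibin subunit gene Inha between 34.2 and 895 FPKM.

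Pdgfra, the alpha receptor gene, lies on mouse chromosome 5 (chr5:75151322-75198206, build GRCm38.p6) and overlaps the microRNA gene Mir7025. The 250 bases before a RefSeq start of Pdgfra, chr5:75152001-75152250 on the plus strand, are shown because this gene had the largest diet effect of the family, and they are set beside the window of Pdgfc, the ligand gene with the largest effect (chr3:81036166-81036415, plus strand), and that of Pdgfa, the ligand gene that was lower at Pd7 (chr5:138995038-138995194, minus strand, only the part outside annotated exons). Capitals mark the CArG box, the binding motif of serum response factor.
Pdgfra: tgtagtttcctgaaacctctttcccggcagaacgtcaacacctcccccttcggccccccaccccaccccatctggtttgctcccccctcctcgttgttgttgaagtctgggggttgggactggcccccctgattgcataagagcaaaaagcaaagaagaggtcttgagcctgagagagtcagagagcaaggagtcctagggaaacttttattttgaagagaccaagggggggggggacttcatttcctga
Pdgfc: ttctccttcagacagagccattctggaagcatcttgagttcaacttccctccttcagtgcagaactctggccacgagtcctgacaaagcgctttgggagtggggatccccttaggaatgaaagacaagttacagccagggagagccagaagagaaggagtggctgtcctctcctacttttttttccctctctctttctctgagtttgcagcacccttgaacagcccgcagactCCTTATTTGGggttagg
Pdgfa: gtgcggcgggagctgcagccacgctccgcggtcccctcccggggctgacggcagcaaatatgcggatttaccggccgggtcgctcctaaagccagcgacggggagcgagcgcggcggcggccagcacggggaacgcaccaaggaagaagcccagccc

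These RefSeq windows were searched on both strands for the TATA box TATAAA, for CCAAT, for the GC box GGGCGG, for the AP-1 site TGAGTCA and for the CArG box. The windows of Pdgfra and Pdgfa held none of these letters, and that of Pdgfc held 1 CArG box that begins 17 bases before the start. Of 32817 promoter windows, 1.47% held a CArG box, 4.46% an AP-1 site, 12.4% a TATA box, 32.7% a GC box and 33.8% CCAAT. The window of Pdgfd (chr9:6168236-6168485, plus strand) held 1 TATAAA that begins 160 bases before the start used. The starts used for Pdgfra, Pdgfa and Pdgfd lie inside the RefSeq spans of these genes, which reach further upstream, so that they are not the outermost starts, and the exons that the windows were kept clear of are those of GENCODE. The Pdgfa window is rich in G and C at 72.0%, against 54.4% for Pdgfra and 50.8% for Pdgfc.

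Pdgfra had the highest mean of the members in every group but F1-Control Pd21, where it stood at 27.1 ± 13.6 FPKM and Pdgfc at 27.2 ± 7.65 FPKM. At Pd3 it measured 8.34, 11.6 and 11.6 FPKM in the F1-Control libraries (replicates 1 to 3) and 46.1, 42.5 and 32.0 FPKM in the F1-HHcy libraries. The lowest F1-HHcy library lay above the highest F1-Control library, and the means were 10.5 ± 1.90 and 40.2 ± 7.35 FPKM (SD, n = 3 each). The log2 fold change was 1.83 (SE 0.18, 95% interval 1.42 to 2.25, limma adjusted p = 0.0142), so that Pdgfra rose at Pd3. The call was lost, at an adjusted p of 0.0920 and 0.128, without F1-Control replicate 1 or F1-Control replicate 2, where the log2 fold changes were 1.69 and 1.91.

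At Pd7 the F1-Control libraries held 37.9, 35.9 and 47.5 FPKM of Pdgfra, all well above those of Pd3. The F1-HHcy libraries held 57.2, 61.4 and 37.5 FPKM, and replicate 3 of them lay within the F1-Control range. The log2 fold change was 0.34 (SE 0.20, 95% interval -0.11 to 0.78, adjusted p = 0.276), which did not pass the test. At Pd21 the values were 20.2, 18.2 and 42.8 FPKM in F1-Control and 43.7, 16.7 and 23.8 FPKM in F1-HHcy. Each diet then had 1 library far above its others, F1-Control replicate 3 and F1-HHcy replicate 1, the groups overlapped over nearly their whole range, and the log2 fold change of 0.05 had a wide 95% interval of -0.85 to 0.95.

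Pdgfrb, the beta receptor gene, lies on chromosome 18 (chr18:61045127-61085067, GRCm38.p6). At Pd3 it measured 4.08, 5.65 and 6.65 FPKM in F1-Control and 13.6, 11.4 and 12.1 FPKM in F1-HHcy. All F1-HHcy libraries lay above all F1-Control libraries, and Pdgfrb rose by 1.07 on the log2 scale (SE 0.17, 95% interval 0.67 to 1.46, adjusted p = 0.0285). This call held without F1-HHcy replicate 3 (adjusted p = 0.00715) and was lost without each other library of that day. The adjusted p was then 0.0779 and 0.0775 without F1-HHcy replicates 1 and 2, and 0.134, 0.143 and 0.0617 without F1-Control replicates 1, 2 and 3, while the log2 fold change stayed between 0.90 and 1.20.

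At Pd7 Pdgfrb measured 12.3, 7.09 and 9.65 FPKM in F1-Control and 17.5, 18.8 and 17.7 FPKM in F1-HHcy. The groups again did not overlap, and Pdgfrb rose by 0.86 on the log2 scale (SE 0.18, 95% interval 0.45 to 1.27, adjusted p = 0.0184). The adjusted p was 0.0617, 0.0676 and 0.0587 without F1-HHcy replicates 1, 2 and 3, and the call held without any F1-Control library. At Pd21 the libraries held 9.21, 15.2 and 11.6 FPKM in F1-Control and 18.6, 7.49 and 14.5 FPKM in F1-HHcy. The F1-HHcy libraries spanned the F1-Control range on both sides, and the log2 fold change was 0.10 (95% interval -0.61 to 0.81).

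**Figure D1:**
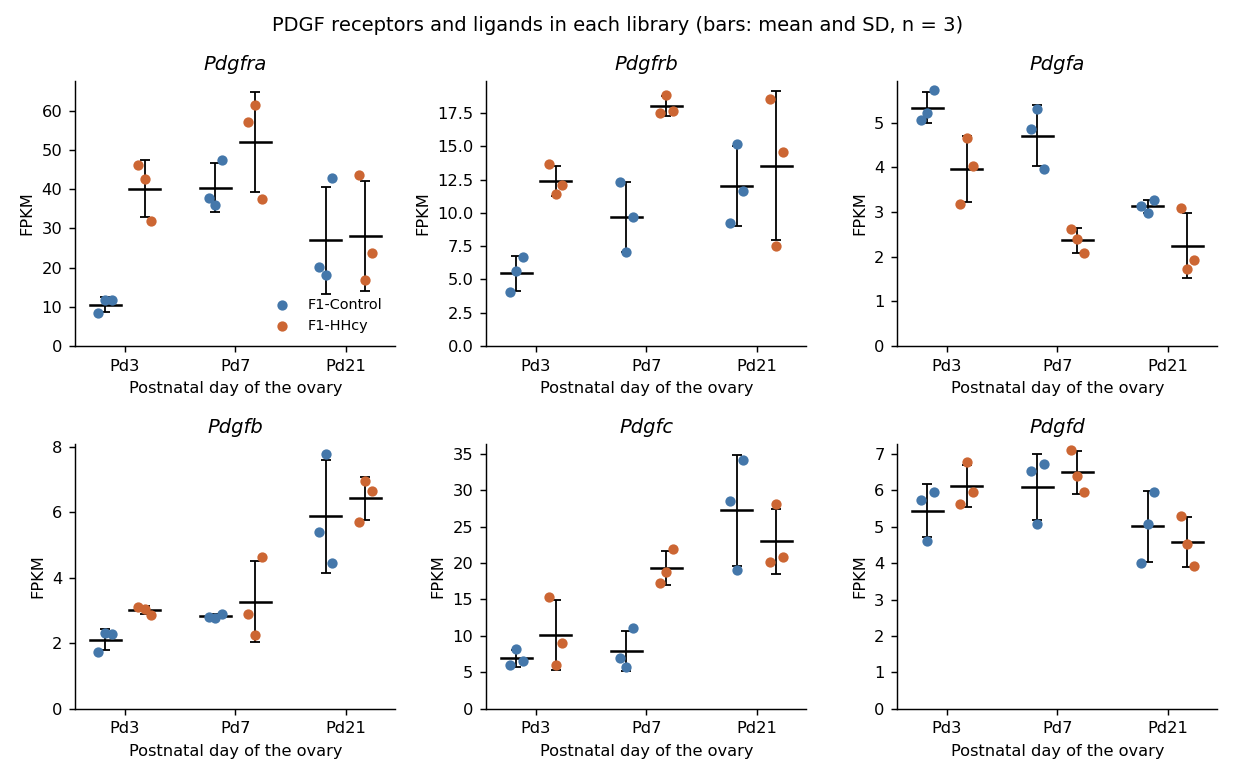
FPKM of the 6 PDGF genes (vertical axes, each from 0) in every library by postnatal day (horizontal axes), with F1-Control in blue and F1-HHcy in orange. Points are libraries, and black bars give the mean and SD of 3. The diets did not overlap in Pdgfra, Pdgfrb, Pdgfa and Pdgfb at Pd3, in Pdgfrb, Pdgfa and Pdgfc at Pd7, and in no gene at Pd21.

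Among the ligands, Pdgfa and Pdgfb encode the classical chains. Pdgfa lies on chromosome 5 as well (chr5:138976014-139000792). At Pd3 it measured 5.06, 5.22 and 5.72 FPKM in F1-Control and 3.19, 4.67 and 4.04 FPKM in F1-HHcy. The F1-HHcy libraries all lay below the F1-Control libraries, but the log2 fold change of -0.36 (SE 0.15, 95% interval -0.70 to -0.02) had an adjusted p of 0.203.

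At Pd7 Pdgfa measured 4.86, 5.30 and 3.96 FPKM in F1-Control and 2.62, 2.40 and 2.08 FPKM in F1-HHcy. The highest F1-HHcy library of Pdgfa lay below the lowest F1-Control library, and Pdgfa fell by 0.76 on the log2 scale (SE 0.16, 95% interval -1.11 to -0.41, adjusted p = 0.0167), to 0.503 times the F1-Control mean. The adjusted p was 0.0570, 0.0638 and 0.0571 without F1-HHcy replicates 1, 2 and 3. At Pd21 Pdgfa measured 3.13, 2.98 and 3.27 FPKM in F1-Control and 3.08, 1.74 and 1.93 FPKM in F1-HHcy. Replicate 1 of F1-HHcy lay within the F1-Control range and the other two below it, with a log2 fold change of -0.37 (95% interval -0.81 to 0.08, adjusted p = 0.955).

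Pdgfb (chr15:79995865-80024614, overlapping the microRNA gene Mir7213), the chain that endothelial cells release towards pericytes, was the least abundant member at Pd3. It measured 1.74, 2.32 and 2.28 FPKM in F1-Control and 3.10, 3.06 and 2.87 FPKM in F1-HHcy on that day. The groups did not overlap, yet the log2 fold change of 0.37 (SE 0.14, 95% interval 0.05 to 0.69) had an adjusted p of 0.172. At Pd7 it ranged from 2.78 to 2.91 FPKM in F1-Control and from 2.26 to 4.65 FPKM in F1-HHcy, and the F1-HHcy libraries lay on both sides of the control range. Its log2 fold change was 0.11 (95% interval -0.34 to 0.57) at Pd7 and 0.14 (95% interval -0.33 to 0.60) at Pd21, when it reached 4.45 to 7.80 FPKM in F1-Control and 5.70 to 6.95 FPKM in F1-HHcy.

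Pdgfc (chr3:81036416-81214040) encodes a latent CUB domain ligand of the alpha receptor. At Pd3 it measured 5.97, 8.26 and 6.55 FPKM in F1-Control and 15.3, 6.00 and 9.04 FPKM in F1-HHcy, with a log2 fold change of 0.41 (95% interval -0.27 to 1.09, adjusted p = 0.442). F1-HHcy replicate 1 carried much of that difference, since without it the log2 fold change was 0.09, and without F1-HHcy replicate 2, the lowest, it was 0.70.

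At Pd7 the F1-Control libraries held 7.04, 5.67 and 11.05 FPKM of Pdgfc and the F1-HHcy libraries 17.3, 18.8 and 21.9 FPKM. Every F1-HHcy library lay above every F1-Control library, and Pdgfc rose by 1.23 on the log2 scale (SE 0.21, 95% interval 0.75 to 1.704, adjusted p = 0.00826), to 2.44 times the F1-Control mean. It was the only member with a call at Pd7 that held without each of the 6 libraries of the day in turn, at adjusted p-values of at most 0.0437. At Pd21 it measured 28.5, 19.0 and 34.2 FPKM in F1-Control and 20.1, 28.1 and 20.8 FPKM in F1-HHcy. The groups overlapped, and the log2 fold change was -0.21 (95% interval -0.74 to 0.31).

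Pdgfd (chr9:6168363-6534284, with the gene Ddi1 inside its span) encodes the latent ligand of the beta receptor and was the steadiest member. Its 18 values lay between 3.93 and 7.12 FPKM, and its group means between 4.58 and 6.49 FPKM. The log2 fold change was 0.15 (95% interval -0.17 to 0.46) at Pd3, 0.08 (95% interval -0.27 to 0.43) at Pd7 and -0.10 (95% interval -0.52 to 0.32) at Pd21.

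Counted together, 2 of the 6 members were called higher and 0 lower at Pd3, where 3.07% of 13277 genes tested were called in either direction and 1.64% higher. The diets did not overlap in 4 members on that day, against 27.9% of all genes tested. At Pd7 2 members were called higher and 1 lower, where 11.9% of 13299 genes were called, 5.88% higher and 5.98% lower, and 3 members did not overlap against 39.0% of all genes. At Pd21 0 members were called by limma, 0 had an unadjusted p under 0.05 and 0 were called by limma-voom, where 2.23% of 13350 genes were called, and 0 members did not overlap against 10.5% of all genes. A looser criterion (p under 0.05 before adjustment, log2 fold change beyond 0.58 either way) again took 2 members at Pd3, 3 at Pd7 and 0 on the last day, beside 9.74%, 16.4% and 5.14% of all genes. When no filter on low values was applied (in the other fits a gene needed 1 FPKM in at least 3 libraries), the same fold changes had adjusted p-values of 0.0816 and 0.102 for Pdgfra and Pdgfrb at Pd3, and of 0.0875, 0.0808 and 0.0729 for Pdgfrb, Pdgfa and Pdgfc at Pd7, so that these calls were lost. The median log2 fold change of the members was 0.39, 0.22 and -0.03 on the 3 days in turn, beside -0.03, -0.00 and -0.01 for all genes tested. The study had selected Pdgfra at Pd3, and Pdgfrb and Pdgfc at Pd7, for display from these same libraries, so that their direction here is not independent evidence.

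**Figure D2:**
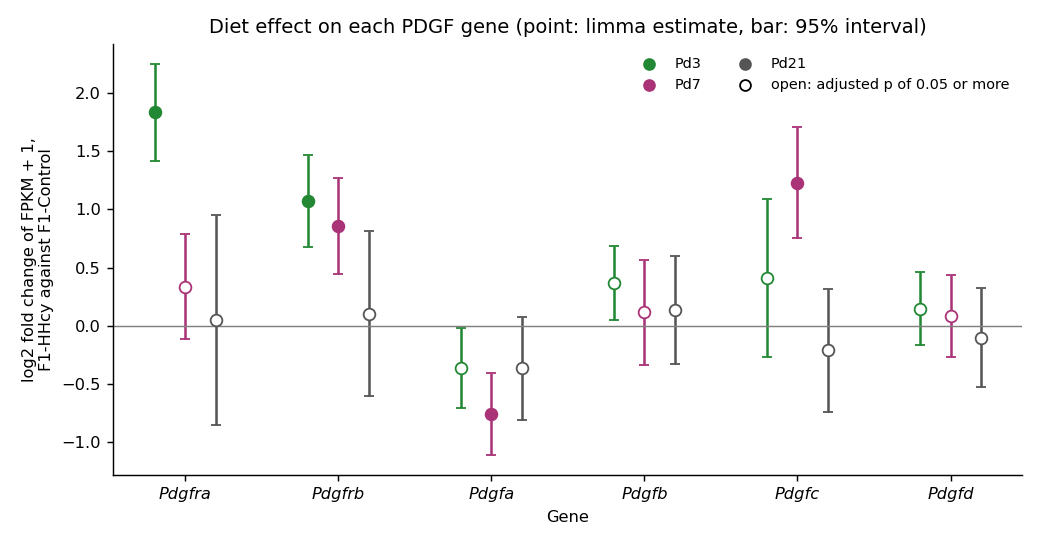
Log2 fold change of FPKM + 1, F1-HHcy against F1-Control (vertical axis), for each PDGF gene (horizontal axis) at Pd3, Pd7 and Pd21, with 3 libraries per diet and day. Points are limma estimates, bars are 95% intervals, and filled points have an adjusted p under 0.05: Pdgfra and Pdgfrb at Pd3, and Pdgfrb, Pdgfa and Pdgfc at Pd7.

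Whether the diet effect differed between days was tested with limma in 1 model of all 18 libraries and 14607 genes. For Pdgfra the effect at Pd21 was smaller than at Pd3 by -1.79 on the log2 scale (SE 0.45, 95% interval -2.74 to -0.83, adjusted p = 0.0301), a contrast in which 4.59% of genes were called and 3.78% were lower. This call was lost without any 1 of 8 of the 12 libraries of those days. They were F1-HHcy Pd3 replicates 1 and 2 (adjusted p = 0.0790 and 0.0705), F1-HHcy Pd21 replicates 2 and 3 (0.0825 and 0.0702), F1-Control Pd3 replicates 1 and 2 (0.101 and 0.0536) and F1-Control Pd21 replicates 1 and 3 (0.0529 and 0.1005), with differences from -1.41 to -2.15 over all 12. Each diet effect lay within a batch, but age and batch cannot be told apart where Pd21 enters.

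Between Pd7 and Pd3 the diet effect on Pdgfra differed by -1.50 (SE 0.45, 95% interval -2.46 to -0.54), with an adjusted p of 0.165 where 0.411% of genes were called. For Pdgfc the effect at Pd21 was smaller than at Pd7 by -1.44 (SE 0.39, 95% interval -2.27 to -0.61, adjusted p = 0.0504, against 3.89% of genes called). Without F1-Control Pd7 replicate 3 or F1-Control Pd21 replicate 2 that adjusted p became 0.0187 and 0.0333. None of the remaining differences between days passed the test, and the largest of them was -0.97 for Pdgfrb between Pd21 and Pd3 (adjusted p = 0.175).

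From Pd3 to Pd7, days that share a batch, Pdgfra rose in F1-Control ovaries by 1.85 on the log2 scale (SE 0.32, 95% interval 1.17 to 2.52, limma adjusted p = 0.00253), in a contrast where 11.4% of genes were called and 5.27% were higher. It was the only member called there. Pdgfrb, at 0.72 (SE 0.26, adjusted p = 0.0796), was called when only the 12 libraries of batch 1 were used (adjusted p = 0.0292) or with median-ratio scaling of the libraries (adjusted p = 0.0408).

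In F1-HHcy ovaries the step of Pdgfra from Pd3 to Pd7 was 0.35 (95% interval -0.33 to 1.03), and 0 members were called at the adjusted threshold, where 5.48% of genes were. Of these 6, Pdgfa and Pdgfc had an unadjusted limma p under 0.05, with steps of -0.55 (adjusted p = 0.0535) and 0.95 (adjusted p = 0.0557), and limma-voom called 0 as well. Both became calls without F1-HHcy Pd3 replicate 1, at adjusted p-values of 0.0179 and 0.00538.

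In the order of the group means, Pdgfra was lowest in F1-Control Pd3, whose libraries lay apart from those of every other group, followed by F1-Control Pd21, F1-HHcy Pd21, F1-HHcy Pd3, F1-Control Pd7 and F1-HHcy Pd7, where each group overlapped its neighbour. The F1-HHcy mean at Pd3, 40.2 ± 7.35 FPKM, stood beside an F1-Control mean at Pd7 of 40.4 ± 6.23 FPKM. Pdgfrb was likewise lowest in F1-Control Pd3 and highest in F1-HHcy Pd7, at 18.01 ± 0.727 FPKM. Pdgfa ran the other way, highest in F1-Control Pd3 at 5.33 ± 0.347 FPKM, and lowest in F1-HHcy Pd21 and F1-HHcy Pd7, at 2.25 ± 0.728 and 2.37 ± 0.273 FPKM, which overlapped each other.

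Pdgfc was lowest in F1-Control Pd3, F1-Control Pd7 and F1-HHcy Pd3, which overlapped, and F1-HHcy Pd7 lay apart above them. Its level in F1-HHcy Pd7, 19.3 ± 2.36 FPKM, overlapped those of F1-HHcy Pd21 (23.0 ± 4.45 FPKM) and F1-Control Pd21 (27.2 ± 7.65 FPKM). Pdgfb was highest in the Pd21 groups, at 5.88 ± 1.73 FPKM in F1-Control and 6.43 ± 0.656 FPKM in F1-HHcy. These Pd21 levels are given without a test against the earlier days, since the batches differ.

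Ratios within a library do not depend on how libraries were scaled. The ratio of Pdgfra to Pdgfrb at Pd3 was 2.05, 2.06 and 1.75 in F1-Control and 3.38, 3.74 and 2.64 in F1-HHcy. The groups did not overlap, and the mean log2 ratio was 0.96 ± 0.13 and 1.69 ± 0.26 (exact two-sided permutation test, p = 0.1, the smallest that 3 against 3 allows). At Pd7 the ratio was 3.07, 5.06 and 4.92 in F1-Control and 3.27, 3.26 and 2.12 in F1-HHcy, which overlapped (mean log2 ratio 2.09 ± 0.41 and 1.499 ± 0.36, exact permutation p = 0.3). At Pd21 the mean log2 ratio was 1.09 ± 0.81 and 1.04 ± 0.28, and F1-Control replicate 2 alone, at a ratio of 1.20, had nearly as much Pdgfrb as Pdgfra.

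The mix of ligand RNA is described by the share of each gene in the summed FPKM of the 4 ligand genes. Pdgfa made up 22.4% ± 6.05 of the ligand sum in F1-Control and 7.60% ± 1.43 in F1-HHcy at Pd7, and Pdgfc made up 36.0% ± 7.77 and 61.4% ± 3.10. Neither share overlapped between the diets, nor did that of Pdgfd, at 28.3% ± 2.09 and 20.8% ± 3.33. The shares of a library depend on each other. The level of Pdgfd itself was not lower at Pd7, at 6.10 ± 0.901 FPKM in F1-Control and 6.49 ± 0.587 FPKM in F1-HHcy. At Pd3 the Pdgfa share did not overlap either, at 26.9% ± 1.22 and 17.6% ± 5.58. At Pd21 Pdgfc held most of the sum in both diets, at 65.1% ± 9.22 in F1-Control and 63.1% ± 4.64 in F1-HHcy. Of the 15 ratios and shares tested by diet and day, each of those without overlap had an exact permutation p of 0.1 and an adjusted p of 0.3, and with 3 libraries against 3 this exact test could not pass the threshold.

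**Figure D3:**
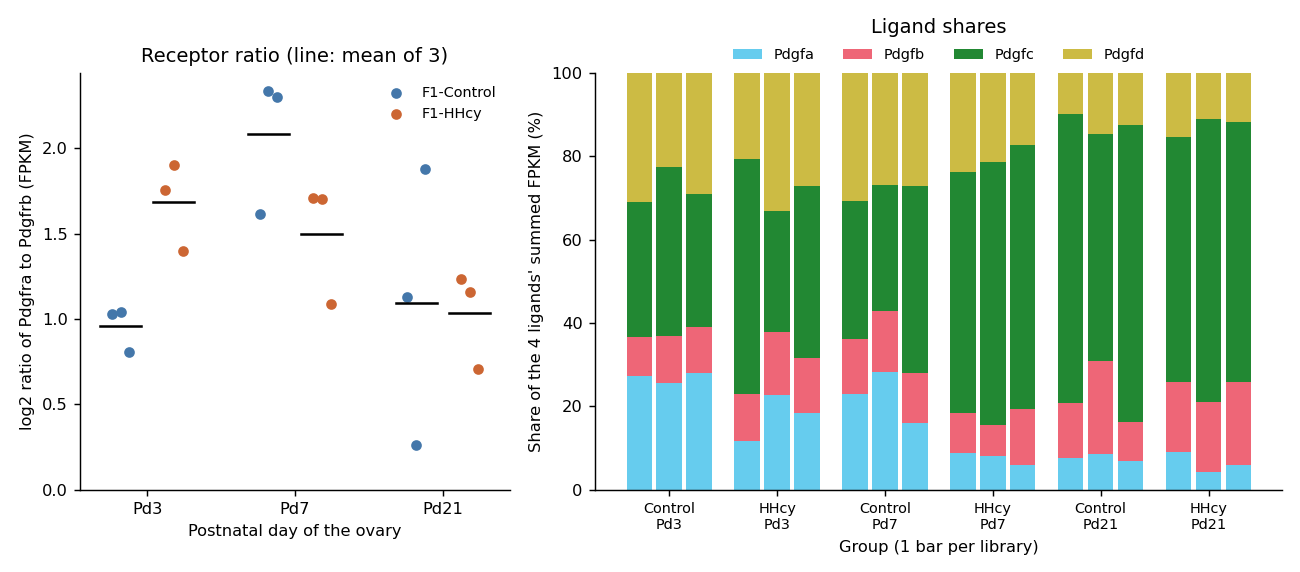
Left, log2 ratio of Pdgfra to Pdgfrb FPKM (vertical axis) in each library by postnatal day, with group means as lines, F1-Control in blue and F1-HHcy in orange. Right, share of each ligand in the summed FPKM of the 4 ligand genes (vertical axis, percent), with 1 bar per library. The Pdgfc share of F1-HHcy at Pd7, 61.4% on average, stood near the Pd21 groups, at 65.1% and 63.1%. The Pd21 groups are of another batch, so age and batch cannot be told apart there, and this likeness was not tested.

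Over the 18 libraries the members tracked each other to different degrees, as described by Pearson's r of log2(FPKM + 1). Pdgfra and Pdgfrb had an r of 0.76, Pdgfb and Pdgfc 0.73, and Pdgfa and Pdgfc -0.85. These points share their diet, day and batch, so the values describe the groups as much as the libraries. Of the 14607 genes, those most like Pdgfra were Mmp2, a matrix metalloprotease (r = 0.95), Lama2, a laminin chain of basement membranes (r = 0.94), and Tcf21, a transcription factor of mesenchymal cells (r = 0.94). Those most like Pdgfrb were Gli2, a transcription factor of hedgehog signalling (r = 0.95), Nrp2, a neuropilin co-receptor (r = 0.94), and Nr2f2, a nuclear receptor of stromal cells (r = 0.94).

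For the ligands, the closest genes to Pdgfa were Nrarp, a target and regulator of Notch signalling (r = 0.96), the scavenging chemokine receptor gene Ackr4 and the tight junction gene Lsr (r = 0.95 for both). Those closest to Pdgfb were the actin bundling gene Fscn1 and Gfpt2, an enzyme of hexosamine synthesis (r = 0.98 for both), and the Myc family gene Mycl (r = 0.97). Pdgfc was most like Net1 (r = 0.97), Crispld2 and Stat5a (r = 0.96 for both). Pdgfd was most like Pofut1, which adds fucose to Notch (r = 0.91), Prrg3 (r = 0.91) and Atp8b2 (r = 0.90).

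Of 41 other genes of PDGF signalling, 39 were tested at Pd3 and at Pd7 and 40 at Pd21. At Pd3 3 were called higher and 0 lower, at Pd7 4 higher and 1 lower, and at Pd21 0 higher and 1 lower, beside 3.07%, 11.9% and 2.23% of all genes called. The median log2 fold change of the list was 0.10, 0.13 and -0.08 on those days. Without the filter on low values the count was 0 on each day, and the counts also depended on single libraries. The 3 calls at Pd3 became 0 without F1-HHcy replicate 1 or F1-Control replicates 1 or 2, 1 without F1-HHcy replicate 2 or F1-Control replicate 3, and 7 once F1-HHcy replicate 3 was left out. The 5 calls at Pd7 became 2, 2 and 1 without F1-HHcy replicates 1, 2 and 3 and 3 without F1-Control replicate 1 or 2, and the 1 call at Pd21 was lost without any library but F1-HHcy replicate 1.

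The proteases that process the ligands are Furin, which cuts the A and B chains inside the cell, Plat, which activates the C chain, Plau, which activates the D chain, and St14, which can cleave latent chains. At Pd7 1 of 3 tested was higher and 0 lower: Plau, the urokinase gene, rose from 23.9 ± 8.00 to 61.5 ± 9.98 FPKM (log2 fold change 1.365, SE 0.22, adjusted p = 0.00668). At Pd3 0 of 3 were called by limma or limma-voom, although Plau had an unadjusted p under 0.05, at 13.4 ± 3.05 and 27.9 ± 12.8 FPKM (adjusted p = 0.127). At Pd21 St14, an epithelial membrane protease gene, fell from 4.80 ± 2.32 to 0.372 ± 0.220 FPKM (log2 fold change -2.002, SE 0.32, adjusted p = 0.0149). Plat, the tissue plasminogen activator gene, had no call on any day, with group means of 35.7 to 84.0 FPKM.

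Of the co-receptors and binding proteins, Lrp1 and Nrp1 rose at Pd3 and Lrp1 at Pd7, of 3 tested on each day. Lrp1, an endocytic receptor that binds the beta receptor, went from 18.7 ± 4.05 to 35.1 ± 1.92 FPKM at Pd3 (log2 fold change 0.89, adjusted p = 0.0320) and from 27.2 ± 11.5 to 61.8 ± 4.72 FPKM at Pd7 (log2 fold change 1.26, adjusted p = 0.0229). Nrp1, a neuropilin co-receptor, went from 3.25 ± 0.596 to 6.32 ± 1.01 FPKM at Pd3 (log2 fold change 0.78, adjusted p = 0.0490). Sparc, a matrix protein that binds the B chain, measured 471 ± 36.5 and 600 ± 46.2 FPKM at Pd3 (adjusted p = 0.161).

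Of the 23 adaptors and effectors, limma and limma-voom called 0 at Pd3 and at Pd21, where 5 and 0 had an unadjusted p under 0.05. At Pd7 Stat5a, a signal transducer phosphorylated downstream of cytokine and growth factor receptors, rose from 2.10 ± 0.465 to 4.12 ± 0.320 FPKM (log2 fold change 0.73, adjusted p = 0.0206). Its relative Stat3 fell from 31.4 ± 4.19 to 20.6 ± 1.56 FPKM (log2 fold change -0.58, adjusted p = 0.0325). The 5 genes of receptor attenuation, ubiquitin ligases and phosphatases that switch the receptors off, had 0 calls by limma or limma-voom on the 3 days, with 0, 2 and 0 at an unadjusted p under 0.05. Their median log2 fold change was 0.10, 0.35 and 0.04, beside -0.03, -0.00 and -0.01 for all genes.

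Among the immediate targets of growth factor signalling Myc alone was called, of 5 tested on each day. Myc, a transcription factor of growth and proliferation, rose from 5.79 ± 0.310 to 16.0 ± 5.71 FPKM at Pd3 (log2 fold change 1.26, adjusted p = 0.0392) and from 10.3 ± 5.56 to 30.3 ± 7.18 FPKM at Pd7 (log2 fold change 1.55, adjusted p = 0.0115). The call at Pd3 was not made by limma-voom. The immediate early gene Fos had an SD above its mean in F1-HHcy at both days, at 301 ± 448 FPKM at Pd3 and 33.4 ± 52.1 FPKM at Pd7, with adjusted p-values of 0.526 and 0.299. Egr1, Junb and Srf were not called on any day.

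**Figure D4:**
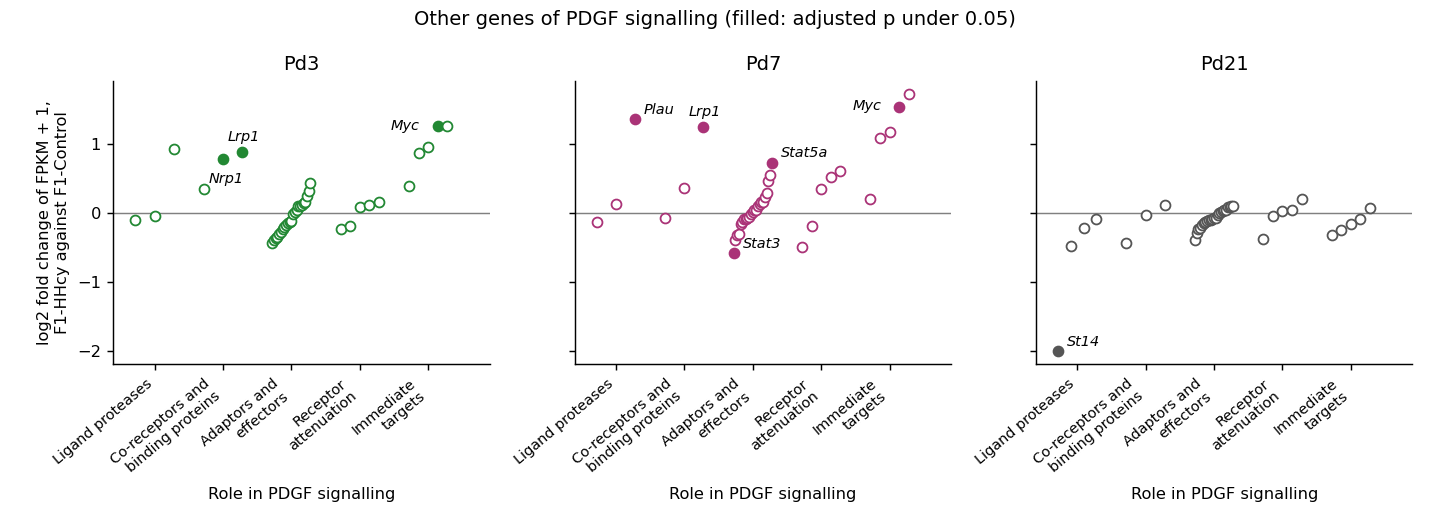
Log2 fold change of FPKM + 1, F1-HHcy against F1-Control (vertical axis), for the other genes of PDGF signalling by role (horizontal axis) at Pd3, Pd7 and Pd21, from 3 libraries per diet and day. Filled points have an adjusted p under 0.05 and carry their symbol: Nrp1, Lrp1 and Myc at Pd3, Plau, Lrp1, Stat5a, Myc and Stat3 at Pd7, and St14 at Pd21.

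In whole ovaries fewer cells of a type and less RNA per cell cannot be told apart, and the summed FPKM of marker lists of the cell types known for PDGF genes is therefore given beside the results, as a description with no test of the sums. At Pd3 3 of 8 stromal markers were called higher and 0 lower, and 7 did not overlap between the diets, beside 1.64% and 27.9% of all genes, with a summed level of 765 to 1040 FPKM in F1-Control and 1360 to 1658 FPKM in F1-HHcy. Of 6 pericyte markers limma and limma-voom called 0, with 4 at an unadjusted p under 0.05, and their sum was 21.2 to 27.4 against 35.7 to 49.3 FPKM. Of 7 endothelial markers tested both called 0, with 5 at an unadjusted p under 0.05, and the sum of all 8 on the list was 44.1 to 62.8 against 79.8 to 113 FPKM. None of these sums overlapped between the diets at Pd3, in the same direction as Pdgfra and Pdgfrb. This was not particular to these cell types, since the oocyte, granulosa, macrophage and adipocyte sums were also higher without overlap. The erythroid sum was lower without overlap, and the smooth muscle, theca and oviduct and ciliated epithelium sums overlapped. The part of any of these cell types in the receptor result was not tested.

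Other marker lists also had calls at Pd3, when 3.07% of all genes were called. Of 4 erythroid markers all 4 fell, from a sum of 3150 to 9060 FPKM in F1-Control to 686 to 953 FPKM in F1-HHcy, with the globin gene Hbb-bs as the most abundant. Of 5 granulosa markers tested 2 rose, Amh and Inha, while the Kit ligand gene Kitl had a log2 fold change of -0.55 that was not called (adjusted p = 0.0642). Of these granulosa markers limma-voom called 1. The oocyte list was mixed. Of its 6 markers Gdf9 and Zp3 rose and 0 fell, but the other 4 had negative log2 fold changes and the median of the list was -0.39. The germ cell genes Dazl (-1.18, adjusted p = 0.0926), Sohlh1 (-1.27, adjusted p = 0.122) and Ddx4 (-0.56, adjusted p = 0.122) were not called. Smooth muscle (6 tested), theca (2 tested), oviduct and ciliated epithelium (6 tested) and macrophage (4 tested) markers had 0 calls by limma or limma-voom, with 1, 0, 0 and 3 at an unadjusted p under 0.05, and no adipocyte marker was tested. The fat hormone gene Lep was the only marker at 0 in a whole group, F1-Control Pd3. With median-ratio scaling of the libraries the log2 fold changes of Pdgfra and Pdgfrb at Pd3 were 1.86 and 1.09 (limma adjusted p = 0.0147 and 0.0254). The part of the erythroid fall and of cell composition in these values was not tested.

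At Pd7 11.9% of all genes were called, and the stromal and pericyte sums overlapped between the diets. The stromal sum was 1466 to 1838 FPKM in F1-Control and 1124 to 1687 FPKM in F1-HHcy (1 of 8 markers called higher, 0 lower), and the pericyte sum 43.1 to 56.6 and 48.6 to 54.4 FPKM (1 of 6 higher, 1 lower). Of these pericyte markers limma-voom called 1. All 6 theca markers, genes of steroid synthesis with the luteinizing hormone receptor gene Lhcgr and the hormone gene Insl3, rose, from a sum of 216 to 449 FPKM to one of 1136 to 1195 FPKM, in the same direction as Pdgfrb and Pdgfc. The most abundant of them over all libraries was Hsd3b1, a steroid dehydrogenase gene. The granulosa (204 to 449 against 452 to 759 FPKM) and adipocyte sums (1.19 to 3.28 against 5.46 to 7.60 FPKM) were also higher. So was the endothelial sum, and none of these overlapped between the diets. The erythroid, macrophage and oviduct and ciliated epithelium sums were lower without overlap, and the smooth muscle and oocyte sums overlapped. The part of these cell types in the Pd7 results was not tested.

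Of the remaining lists at Pd7, 1 of 8 endothelial markers rose (sum 92.9 to 105 against 108 to 122 FPKM), 1 of 7 granulosa markers rose and 3 of 6 oocyte markers fell. The granulosa call was not made by limma-voom. Of the 5 tested oviduct and ciliated epithelium markers 2 fell, of 3 tested erythroid markers 3 fell, and 1 of 2 tested adipocyte markers rose, while smooth muscle and macrophage markers had 0 calls by limma or limma-voom and 1 each at an unadjusted p under 0.05. Of those erythroid markers limma-voom called 2. At Pd21, when 2.23% of all genes were called, 5 of 6 oviduct and ciliated epithelium markers fell, from a sum of 105 to 506 FPKM in F1-Control to 10.9 to 25.3 FPKM in F1-HHcy, on the same day and in the same direction as St14. The part of that epithelium in the St14 result was not tested. The smooth muscle list had 1 fall of 6 at Pd21, and the stromal, pericyte, endothelial, theca, granulosa, oocyte, adipocyte, erythroid and macrophage lists had 0 calls by limma or limma-voom, with 2 stromal, 1 pericyte and 2 adipocyte markers at an unadjusted p under 0.05.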

How the data were processed

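RNA of whole ovaries was sequenced by the authors from stranded poly-A libraries, and for every library the authors deposited 1 linear value beside each gene symbol without naming its unit. The deposited unit was taken to be FPKM, because for 27291 of 27294 genes above 0 in 3 or more libraries 1 gene length and 1 factor per library turned them into whole fragments (99.989%, tolerance 0.02 fragments). The submitters' processing notes name FastQC 0.11.9, Trimmomatic 0.39, STAR 2.7.9a, featureCounts 2.0.1, DESeq2 1.36.0 and the build GRCm38 (mm10), with no roles. Where genes overlap, how fragments were assigned is not given in the sources used here.

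Diets were compared within each day with limma 3.58.1 (R 4.3.3) on log2(FPKM + 1), with a variance trend, for genes of at least 1 FPKM in at least 3 of 6 libraries, with Benjamini-Hochberg adjustment. Differences between days and the step from Pd3 to Pd7 came from 1 model of 18 libraries. The fit was also run on simulated data with independent noise for each gene. Those data hold no litters and no change of cell types, so that run has no bearing on either. Ratios were compared with the exact permutation test, whose smallest p for 3 against 3 is 0.1. Alternatives were a pseudocount of 0.1, no filter, median-ratio scaling, limma-voom on the recovered fragments, a replicate block, other sets of libraries, each library left out, and for counts a looser criterion (unadjusted p under 0.05, log2 fold change beyond 0.58 in size). The members, a list of 41 pathway genes and 11 marker lists were chosen with earlier results of these data known. All members were named, with each pathway gene called, the most abundant marker of a list where it is described, and the 3 genes most like each member. Loci and promoter windows are from RefSeq (GRCm38.p6), matched by symbol, with a window for 4 of the 6 members. The promoters of Pdgfb and Pdgfrb were not used here.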

Additional observations from a re-analysis of the deposited data

Results flagged for a closer look

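The diet effect on Pdgfra differed between days. It was 1.83 on the log2 scale at Pd3 and 0.05 at Pd21, a difference of -1.79 (SE 0.45, limma adjusted p = 0.0301, tested as an interaction over 14607 genes). At Pd3 Pdgfra was higher in 3 of 3 F1-HHcy libraries than in any F1-Control library, while at Pd21 both diets spanned a similar range, 18.2 to 42.8 FPKM in F1-Control and 16.7 to 43.7 FPKM in F1-HHcy. Over the other settings the limma adjusted p of this difference ran from 0.0289 with a pseudocount of 0.1 to 0.0765 without a filter, where the call was lost. The call was also lost without any 1 of 8 of the 12 libraries of those days. Pd21 is also batch 2, so age and batch cannot be told apart in this difference. No test for a sample far from its group was made, since each group had 3 libraries.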

How the results depend on the processing

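Effects are log2 fold changes, F1-HHcy against F1-Control. Calls of members held under the pseudocount of 0.1, limma-voom, 1 model of 18 libraries and the unadjusted criterion. Without a filter, values stayed the same but calls were lost for Pdgfra (1.83) and Pdgfrb (1.07) at Pd3, Pdgfrb (0.86), Pdgfa (-0.76) and Pdgfc (1.23) at Pd7 and Pdgfra between Pd21 and Pd3 (-1.79), and the pathway counts were 0 on each day. The cause was not tested. Median-ratio scaling turned the difference of Pdgfa between Pd21 and Pd3 from -0.0060 to 0.017, and made Pdgfrb a call from Pd3 to Pd7 in F1-Control (0.78), as did the 12 libraries of batch 1 (0.72).

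Libraries with the same replicate number did not deviate together across the diets. Whether they shared a litter or a preparation was not tested. Correlations of same-numbered deviations were for Pd3 -0.15, -0.14 and -0.20, for Pd7 0.06, -0.11 and 0.09, and for Pd21 -0.16, -0.12 and -0.34. With the replicate block Pdgfra (1.83, adjusted p = 0.108) and Pdgfrb (1.07, adjusted p = 0.112) were not called at Pd3, the pathway count at Pd3 was 0, and no other call changed.

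With each library left out in turn, effects ran at Pd3 from 1.69 to 1.99 (Pdgfra) and 0.90 to 1.20 (Pdgfrb). At Pd7 they ran from 0.67 to 1.03 (Pdgfrb), -0.86 to -0.68 (Pdgfa), -0.11 to 0.29 (Pdgfb, negative without F1-HHcy replicate 3) and -0.026 to 0.15 (Pdgfd, negative without F1-Control replicate 2). At Pd21 they ran from -0.32 to 0.42 (Pdgfra), -0.15 to 0.45 (Pdgfrb), -0.019 to 0.33 (Pdgfb) and -0.23 to 0.010 (Pdgfd). Differences between days ran from -0.17 to 0.031 (Pdgfd, Pd7 minus Pd3), -2.15 to -1.41 (Pdgfra) and -0.18 to 0.11 (Pdgfa, both Pd21 minus Pd3), and -0.65 to 0.084 (Pdgfra), -0.15 to 0.24 (Pdgfb) and -1.68 to -1.25 (Pdgfc, all Pd21 minus Pd7). Steps from Pd3 to Pd7 ran from -0.10 to 0.32 (Pdgfc) in F1-Control and from -0.67 to -0.45 (Pdgfa), -0.17 to 0.23 (Pdgfb) and 0.66 to 1.27 (Pdgfc) in F1-HHcy. At Pd21 the log2 receptor ratio differed by -0.47 to 0.34, the Pdgfc share by -7.34 to 1.10 and the Pdgfd share by -0.87 to 1.65 percentage points, and the Pdgfd share at Pd3 by -3.64 to 2.55. Pathway counts ran from 0 to 7 at Pd3, 1 to 5 at Pd7 and 0 to 1 at Pd21. At least 311 fragments backed each member in each library, and the effect of depth on the intervals was not tested.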
